A study of Mus musculus with 16 samples.

Results

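In activated muscle stem cells 17.4% of the genes with H3K4me3 at their start also carried H3K27me3 by the broad H3K27me3 peak list. With a stricter, narrow list the share was 9.07%, and over all alternative settings it ran from 4.74% to 37.6%. The H3K4me3 of genes with both marks was weaker and shorter than that of genes with H3K4me3 only. The description covers the activated state (ASC) of mouse muscle stem cells, strain C57BL/6, taken from skeletal muscle. These are 8 of the 16 samples of the series, chosen by their titles. They comprise 2 immunoprecipitated samples for H3K4me3, 2 for H3K27me3, and an input sample (chromatin with no antibody) for each of these 4. The quiescent state (QSC) was assayed in the same way with 8 samples. How the cells were isolated and activated, the age of the mice and whether the replicates came from separate animals are not stated in the labels. Replicates of a mark share their peak lists in the labels, and each list was therefore read as a pooled result. No value below has a spread over replicates, and no test over samples could be made.

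H3K4me3 is the trimethylation of lysine 4 of histone H3, placed by the COMPASS and MLL complexes around the starts of genes that are transcribed or ready to be. H3K27me3 is the trimethylation of lysine 27 of the same histone, placed by Polycomb repressive complex 2 over genes held silent. Genes with both marks at the start are called bivalent and are best known for developmental regulators in stem cells. Muscle stem cells, or satellite cells, lie between the muscle fibre and its basement membrane and divide after injury to form new muscle. Chromatin of many cells was assayed together, so both marks at a gene can come from the same nucleosome, from the 2 copies of the gene or from different cells, and these cannot be told apart.

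The deposited lists gave 15869 narrow H3K4me3 peaks and 95819 broad H3K27me3 peaks in activated cells. H3K4me3 peaks had a median length of 2028 bp and a median fold over background of 16.3, the authors' value for each peak. H3K27me3 broad peaks had a median length of 2793 bp and a median fold of 1.72, and 8.51% of them had a q-value of at most 0.05. A second, narrow H3K27me3 list of 58454 peaks with a median fold of 3.88 served as the stricter list. Together the H3K4me3 peaks covered 35.4 Mb and the broad H3K27me3 peaks 517 Mb. The files do not show how deeply each sample was sequenced.

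A gene was read in a window of 1 kb either side of its start, 2001 bp in all. It had H3K4me3 where a narrow peak touched the window, and H3K27me3 where broad peaks covered at least 500 bp of it. Of 21887 protein-coding genes, 17492 had a start with strand in the RefSeq promoter table, and for the other 4395 both ends of the gene record were read, so that a start inside the record is missed. Classes come from these windows: H3K4me3 only, both marks at the same window, H3K27me3 only and neither. A further 167 genes had the marks at different windows and are called separate.

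The labelled cell type was checked on marker genes. Of 8 markers of muscle stem cells 7 had H3K4me3 only and 1, Calcr (calcitonin receptor), had both, with a median H3K4me3 fold of 35.5. Of 5 immune markers 4 had H3K27me3 only and 1 had neither mark, and Ptprc, which encodes CD45, had H3K27me3 only. Endothelial Pecam1 had neither mark, and Kdr had both. Among fibro-adipogenic markers Pdgfra had both marks with an H3K4me3 fold of 5.24. Among pericyte markers Acta2 had H3K4me3 only, at a fold of 10.5. Of 5 Schwann and glial markers 2 had H3K4me3, while Sox10 had H3K27me3 only. Of 5 markers of differentiated fibres 4 had H3K27me3 only and 1 had neither. Several of these calls rest on the broad list alone. With the narrow list Calcr had H3K4me3 only, and Ptprc, Csf1r, Ckm, Myh4 and Tnnt3 had neither mark. Among the immune and fibre markers Itgam, Cd3e and Acta1 kept H3K27me3 there. What part cells of other types had in the signal was not tested.

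Promoter sequences of a few genes are given as examples of each class, and they need not be typical of it. The 8 promoters below are the 250 bases before the start in RefSeq (GRCm38.p6, the assembly behind mm10), written 5′ to 3′ on the gene's strand, with each CpG in capitals. CpG is the dinucleotide that forms CpG islands at many gene starts. Each class has 2 genes, taken from the gene lists described below, whose class is the same with the broad and the narrow H3K27me3 list.
Pax7, the satellite cell regulator, and Cdk1, the mitotic kinase, had H3K4me3 only. Pax7 lies at chr4:139832969-139833218 (minus strand) and Cdk1 at chr10:69352913-69353162 (minus strand).
Pax7: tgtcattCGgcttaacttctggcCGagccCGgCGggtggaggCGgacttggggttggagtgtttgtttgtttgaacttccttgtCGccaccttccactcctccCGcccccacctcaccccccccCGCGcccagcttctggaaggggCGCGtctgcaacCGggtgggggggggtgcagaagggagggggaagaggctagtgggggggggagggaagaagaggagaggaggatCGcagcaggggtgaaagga
Cdk1: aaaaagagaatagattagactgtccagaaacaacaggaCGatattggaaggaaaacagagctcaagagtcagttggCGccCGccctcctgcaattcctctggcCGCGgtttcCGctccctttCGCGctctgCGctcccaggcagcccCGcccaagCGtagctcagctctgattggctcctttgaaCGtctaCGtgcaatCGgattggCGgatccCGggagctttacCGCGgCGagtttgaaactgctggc
Lhx2, a LIM homeobox regulator of forebrain and limb, and Wnt4, a secreted Wnt ligand, had both marks. They lie at chr2:38351058-38351307 and chr4:137277385-137277634, both on the plus strand.
Lhx2: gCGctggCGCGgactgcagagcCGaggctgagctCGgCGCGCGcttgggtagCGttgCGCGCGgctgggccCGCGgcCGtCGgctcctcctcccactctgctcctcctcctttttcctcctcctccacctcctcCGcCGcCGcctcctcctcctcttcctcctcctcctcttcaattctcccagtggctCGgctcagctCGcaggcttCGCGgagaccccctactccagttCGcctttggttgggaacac
Wnt4: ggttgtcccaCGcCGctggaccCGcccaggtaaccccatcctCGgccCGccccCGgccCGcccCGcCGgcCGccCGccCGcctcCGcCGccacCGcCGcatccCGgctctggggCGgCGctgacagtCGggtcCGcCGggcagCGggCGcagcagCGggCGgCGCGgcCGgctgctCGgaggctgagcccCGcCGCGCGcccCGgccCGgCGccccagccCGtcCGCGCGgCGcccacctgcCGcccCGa
Neurog1, a regulator of neurogenesis (chr13:56252181-56252430, minus strand), and Myh2, a fast myosin heavy chain of muscle fibres (chr11:67170777-67171026, plus strand), had H3K27me3 only.
Neurog1: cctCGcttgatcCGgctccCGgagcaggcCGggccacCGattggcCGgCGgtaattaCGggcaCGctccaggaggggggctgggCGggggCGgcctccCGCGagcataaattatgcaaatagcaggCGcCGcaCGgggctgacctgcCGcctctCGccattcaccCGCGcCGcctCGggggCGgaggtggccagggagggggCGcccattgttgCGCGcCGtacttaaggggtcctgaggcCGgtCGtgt
Myh2: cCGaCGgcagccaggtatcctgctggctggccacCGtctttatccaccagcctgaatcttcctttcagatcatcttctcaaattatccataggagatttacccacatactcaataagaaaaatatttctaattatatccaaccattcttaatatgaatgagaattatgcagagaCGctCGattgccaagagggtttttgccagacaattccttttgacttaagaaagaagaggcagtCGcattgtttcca
Myog, the regulator of myogenic differentiation (chr1:134289754-134290003, plus strand), and Actc1, cardiac and embryonic muscle actin (chr2:114052876-114053125, minus strand), had neither mark.
Myog: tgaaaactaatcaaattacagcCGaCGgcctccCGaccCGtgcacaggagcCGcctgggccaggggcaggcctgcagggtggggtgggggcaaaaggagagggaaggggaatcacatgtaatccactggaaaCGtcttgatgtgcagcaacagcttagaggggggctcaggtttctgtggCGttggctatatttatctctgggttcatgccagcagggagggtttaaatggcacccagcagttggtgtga
Actc1: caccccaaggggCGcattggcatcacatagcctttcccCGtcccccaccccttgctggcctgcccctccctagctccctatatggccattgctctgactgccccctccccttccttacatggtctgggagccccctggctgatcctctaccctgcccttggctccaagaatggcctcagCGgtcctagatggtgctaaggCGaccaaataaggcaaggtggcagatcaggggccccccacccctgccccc
These stretches hold 13 CpG in Pax7, 19 in Cdk1, 24 in Lhx2 and 44 in Wnt4. Neurog1 has 29 and Myh2 has 6, so the class with H3K27me3 only holds promoters of both kinds. Myog has 7 and Actc1 has 4.

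Over all 21887 genes, 57% had H3K4me3 and 30% had H3K27me3. H3K4me3 only was the largest class, with 10141 genes (46.3%). Both marks were present at 2168 genes (9.91%), H3K27me3 only at 4231 (19.3%) and neither at 5180 (23.7%). Of 12476 genes with H3K4me3 17.4% had H3K27me3 at the same window, and of 9411 genes without H3K4me3 45.0% carried H3K27me3. With the narrow H3K27me3 list the shares were 9.07% and 18.9%, and 1131 genes (5.17%) had both marks. Of the 2168 genes with both marks, 52.2% kept both with the narrow list, and of the genes with H3K27me3 only 42.0% kept that class. For the remainder the call of H3K27me3 rests on the broad list alone.

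Genes with both marks had the weaker H3K4me3. The median fold was 9.39 at genes with both (quartiles 6.07 and 14.3) and 24.0 at genes with H3K4me3 only (quartiles 17.0 and 30.3). H3K4me3 domains, in which narrow peaks up to 1 kb apart were joined, had a median length of 1694.5 bp at genes with both and 2834 bp at genes with H3K4me3 only, a ratio of 0.598. Across the range of H3K4me3 the share of genes that also carried H3K27me3 was 62.9% at a fold of 3 to 5, 56% at 5 to 10, 29.4% at 10 to 15, 13.9% at 15 to 20, 4.58% at 20 to 30 and 1.37% above 30. By domain length it was 58.7% under 500 bp and 5.69% from 3000 to 5000 bp. With the narrow H3K27me3 list the order was the same, from 45.4% at a fold of 3 to 5 down to 0.222% above 30. These are values over genes of a single pooled list per mark, and neighbouring genes can share a peak.

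**Figure D1:**
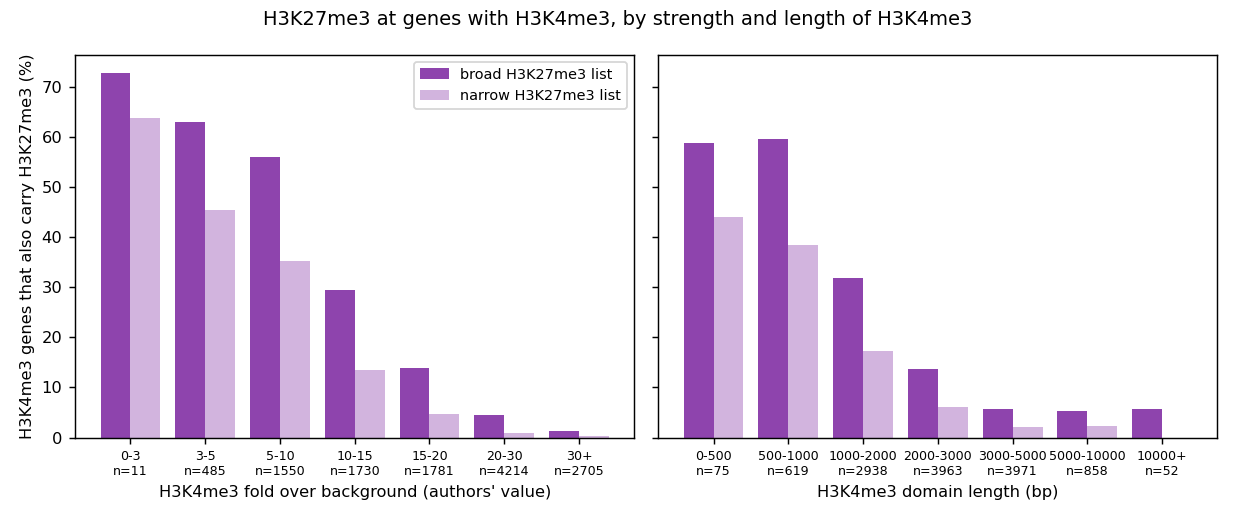
Percent of H3K4me3 genes that also carry H3K27me3 (vertical axis), by the authors' H3K4me3 fold (left) and by H3K4me3 domain length in bp (right), with the number of genes under each bar. Dark bars use the broad and light bars the narrow H3K27me3 list; on the left the dark bars go from 72.7% in the lowest bin of 11 genes to 1.37% in the highest.

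At most genes with both marks the marks lay on the same bases. In 1405 of 2168 such genes (64.8%) all H3K4me3 bases of the window were also under broad H3K27me3. At 456 genes (21.0%) under 50% of them were, and at 127 genes (5.86%) none were, so that the marks stood side by side within the window. The first kind had a median H3K4me3 fold of 7.59 and a median of 9980 bp of H3K27me3 among the 10001 bp within 5 kb of the start. Genes with under 50% of H3K4me3 under H3K27me3 had a median fold of 15.1 and 4810 bp. In 700 genes with both marks the whole 10001 bp was under H3K27me3, a tie that leaves no order among them. The narrow list gave a different division: all H3K4me3 bases were under a narrow H3K27me3 peak at 34.1% of its 1131 genes with both marks.

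Single genes show these arrangements. At Hmga2, a chromatin protein of growing cells and the gene with the highest H3K4me3 fold among those with both marks (46.4), an H3K27me3 domain at chr10:120464049-120493077 ran past both ends of the H3K4me3 peak at chr10:120472054-120478555. At Cdkn2a, which encodes the cell cycle inhibitors p16 and p19ARF, H3K27me3 at chr4:89263949-89294541 overlapped the edge of an H3K4me3 peak at chr4:89293978-89296809 with a fold of 37.4. At Strap the marks did not overlap: H3K27me3 ended at position 137734654 of chromosome 6 and the H3K4me3 peak, with a fold of 38.8, began at 137734752. Of the 10 genes with both marks and the highest H3K4me3 fold, Catsperd was the single gene that kept both marks at the same window with the narrow list, and Cdkn2a had them at separate windows. Irx5, a homeobox gene with an H3K4me3 domain of 7772 bp, was inside an H3K27me3 domain of 55605 bp and kept both marks with either list.

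Seen from the H3K4me3 peaks, 3722 of 15869 (23.5%) overlapped a broad H3K27me3 peak, and 13.0% lay wholly inside. The share was 22.1% for the 12670 peaks at gene starts, 30.0% for those elsewhere in a gene record and 24.6% for those between genes. With the narrow list 12.03% overlapped. Counted by bases, 10.97% of the H3K4me3 peaks was under broad H3K27me3. This was 9.85% for peaks at gene starts, 18.6% elsewhere in a gene record and 17.12% between genes. The broad H3K27me3 peaks covered 517 Mb, so some overlap would arise wherever peaks lay. That amount was not computed, and the shares therefore show neither an excess nor a lack of overlap. Peaks wholly inside H3K27me3 had a median fold of 6.68 and a median length of 1143.5 bp, against 19.7 and 2217 bp for peaks with no H3K27me3. H3K4me3 peaks wholly inside H3K27me3 differed less at sites between genes, where the median fold was 5.60 inside and 5.60 with none.

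Merged into 14116 domains, 75.9% of the H3K4me3 domains had no H3K27me3 on them, 12.8% were all under it, 2.64% were covered to 50% or more and 8.69% to less. Of all domains 29.9% were free of H3K27me3 but had it within 5 kb on a single side, 2.77% were free with H3K27me3 on both sides and 43.2% had none within 5 kb. The last group had a median length of 2665 bp and the domains between 2 H3K27me3 flanks 1108 bp. From a free H3K4me3 domain to the nearest H3K27me3 peak the median distance was 7679.5 bp, with 17.5% within 1 kb and 15.5% beyond 50 kb. Summits of narrow H3K27me3 peaks were less frequent inside H3K4me3 domains, at 19.1 per Mb, than in their flanks. The flanks had 55.1 per Mb within 1 kb, 53.3 from 1 to 2 kb, 45.1 from 2 to 5 kb and 41.6 from 5 to 10 kb. The density over the whole genome was not computed, so the values compare domains with their flanks only.

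Around gene starts with strand the classes had different shapes. At genes with both marks broad H3K27me3 covered 72.3% of genes in the 100 bp just before the start, 87.8% at 1250 bp before it and 84.1% at 950 bp after it, a dip at the start on both lists. H3K4me3 was most frequent 250 bp after the start, in 88.2% of these genes. Genes with H3K27me3 only had no dip: coverage was 90.1% just before the start and reached 90.6% at 450 bp after it. The narrow list gave 28.3% at the start of genes with both marks and a maximum of 51.0% at 1450 bp after it. H3K4me3 summits lay at a median of 267 bp after the start in genes with both marks and 331 bp after it in genes with H3K4me3 only.

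**Figure D2:**
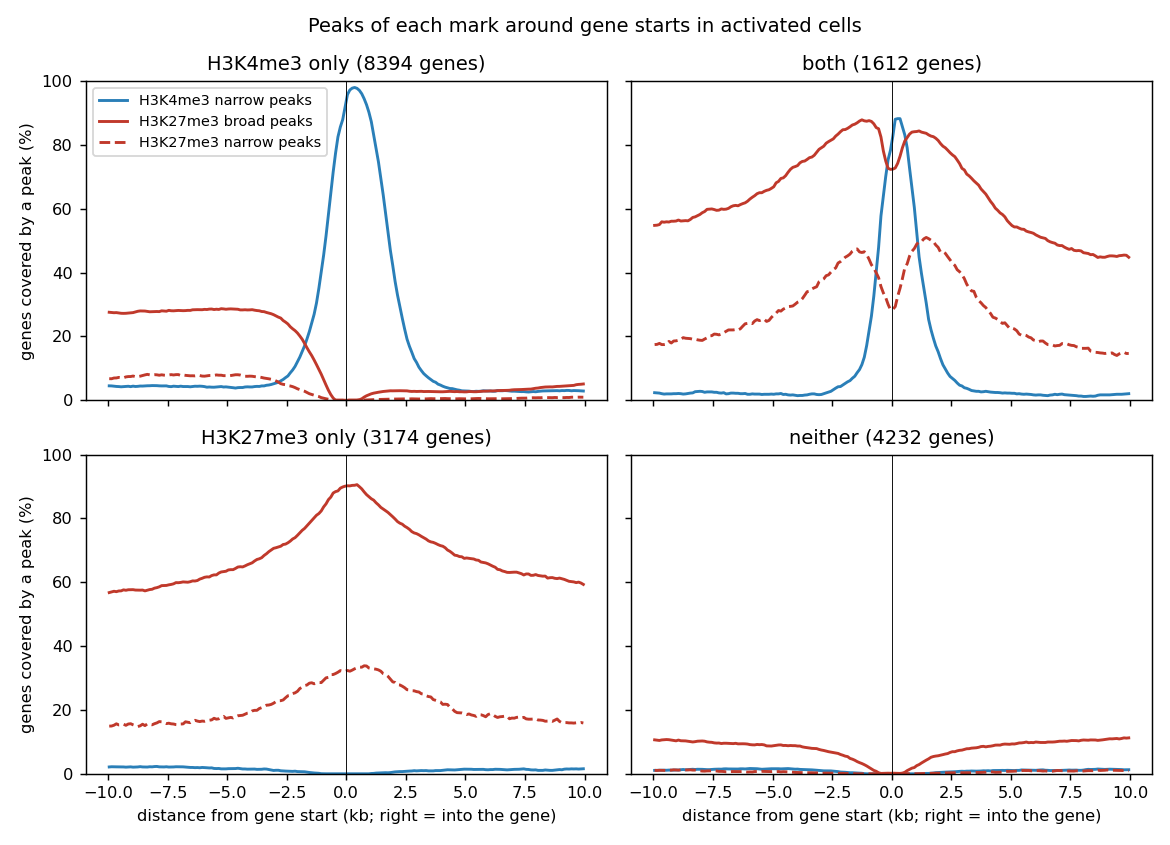
Percent of genes under a peak (vertical axis) by distance from the gene start in kb (horizontal axis, positive into the gene), in bins of 100 bp, for the 4 classes of genes with a stranded start. Blue is H3K4me3, solid red broad H3K27me3 and dashed red narrow H3K27me3; H3K27me3 dips at the start of genes with both marks, and lies before the start but hardly after it in genes with H3K4me3 only.

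Genes with H3K4me3 only were unequal on the 2 sides of the start. Broad H3K27me3 covered 28.6% of them at 4950 bp before the start and 2.61% at 4950 bp after it. From 1 to 6 kb away, 2973 of 8394 such genes (35.4%) had at least 500 bp of H3K27me3 before the start only, 242 (2.88%) after it only and 199 (2.37%) on both sides. With the narrow list 13.2% had it before only and 0.870% after only. Genes with neither mark showed no such inequality, with 8.36% before only and 8.44% after only. In genes with both marks 78.6% had H3K27me3 on both sides. The windows before the start can lie in a neighbouring gene, and the part of neighbours was not tested. Over the gene record, H3K27me3 covered a median of 44.9% of genes with both marks, 77.8% of genes with H3K27me3 only and 0% of genes with H3K4me3 only. At 103 genes with H3K4me3 only (1.02%) at least 50% of the record was under H3K27me3.

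Among genes with H3K4me3 only, the strongest peaks included those at Irf2bpl with a fold of 56.0, Midn and Ppp1r15b at 54.0, Ptma at 53.5, Pcbp1 at 53.3 and, through a shared peak, Lrsam1 and Rpl12 at 52.9. Jun, an AP-1 subunit, followed at 52.2 and Arf6 at 51.7. The longest H3K4me3 domains of this class lay in Hox clusters, 45438 bp over Hoxc9, Hoxc10 and Hoxc11 and 33096 bp over Hoxa3, Hoxa6 and Hoxa9. Other long domains covered the nuclear factor I genes Nfix with 20227 bp and Nfib with 17498 bp, and Pax7 with 16898 bp. The 33096 bp domain of the Hoxa cluster also reached Hoxa7 and Hoxa10, which had both marks with the broad list and H3K4me3 only with the narrow list. Along that cluster genes with H3K4me3 only and with both marks thus stood under the same H3K4me3 domain.

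Satellite cell and myogenic genes had H3K27me3 at 22.2% and 29.0% of members, near or below the 30% of all genes. Both marks were at 19.4% and 22.6%, above the 9.91% of all genes. H3K4me3 was present at 94.4% and 80.6% of members, beside 57% of all genes. Among members with H3K4me3, 20.6% and 28% had both marks, beside 17.4% of all genes with H3K4me3. Of 36 genes of satellite cell identity and quiescence, 27 had H3K4me3 only, 7 both, 1 H3K27me3 only and 1 neither. Pax7 had a fold of 47.0 with no H3K27me3 within 5 kb, and its peak spanned chr4:139819663-139836560. Itga7 (integrin alpha 7) had a fold of 47.9, Vcam1 35.4 and Myf5 35.6, also with no H3K27me3 within 5 kb. Pax3, the paralog of Pax7, had both marks: its H3K4me3 fold was 8.13 over 2213 bp, and its H3K27me3 domain was 178772 bp long. The other 6 genes with both marks were Calcr, Chrdl2, Tenm4, Bmp4, Col5a1 and Cdkn1c, of which Chrdl2, Bmp4 and Cdkn1c, with Pax3, kept both with the narrow list. Of 31 myogenic regulators 18 had H3K4me3 only and 7 both. Myod1, the determination factor, had a fold of 30.8 with no H3K27me3 within 5 kb. The later-acting Myog had neither mark, and so did the myoblast fusion gene Mymk, Mstn (myostatin) and Cdon. Igf2 and Eya2 kept both marks with the narrow list, while Mef2c, Six2, Dach1, Dach2 and Boc had H3K4me3 only there.

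Genes of growth and division were mostly in the class with H3K4me3 only, which held 46.3% of all genes. Of 46 genes of the cell cycle and DNA replication, 45 had H3K4me3 only, with folds up to 46.2 at Ccnd1. The exception was Ccnd2 (cyclin D2), which had no H3K4me3 at its windows, a domain of H3K27me3 of 68457 bp and H3K27me3 over all 10001 bp within 5 kb. Ccnd2 was read at both ends of its record. Of 30 genes of ribosome biogenesis and translation 29 had H3K4me3 only, and Ubtf, a factor of ribosomal RNA transcription, had both with the broad list. H3K4me3 only was also the class of 75 of 81 cytosolic ribosomal protein genes, 45 of 48 proteasome genes, 37 of 40 genes of mitochondrial complex I and 53 of 64 replication-dependent histone genes. Of 20 reference genes 19 had H3K4me3 only and Ywhaz, read at the ends of its record, had neither. Among 35 immediate early and stress genes 30 had H3K4me3 only. The 4 with both were Egr2, Egr3, Egr4 and Hspa1b, and the Egr genes kept both with the narrow list. Egr1 by contrast had H3K4me3 only, at a fold of 32.7 with no H3K27me3 within 5 kb.

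**Figure D3:**
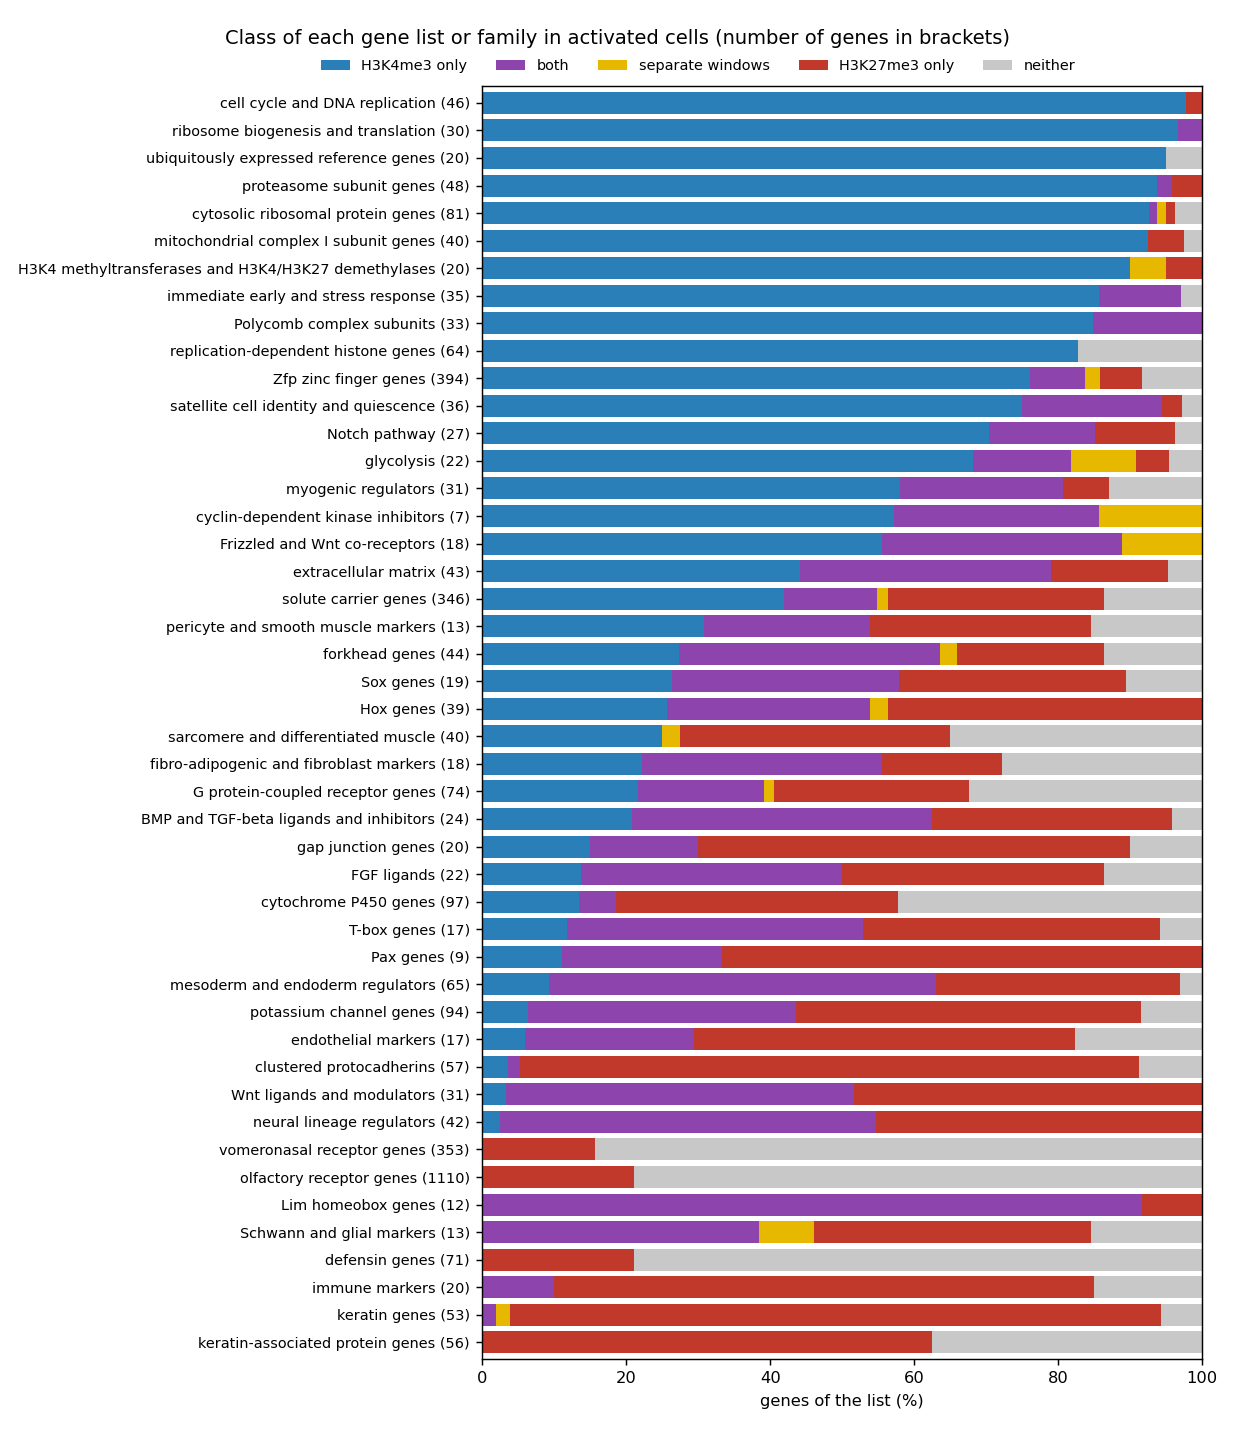
Percent of genes in each class (horizontal axis) for the 24 gene lists and 22 gene families, with the number of genes in brackets, ordered by the share with H3K4me3 only. Cell cycle genes are at the top with 45 of 46 in that class, Wnt ligands and neural regulators are divided between both marks and H3K27me3 only, and olfactory and vomeronasal receptors are mostly without either mark.

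Regulators of other lineages often carried both marks, beside 9.91% of all genes. Of 42 neural regulators 22 had both marks, 19 H3K27me3 only and 1, En1, H3K4me3 only. The 22 kept both marks with the narrow list. Their H3K4me3 was low, with folds of 3.79 at Sox2, 5.16 at Pax2, 7.77 at Neurog2, 11.6 at Lhx2 and 16.8 at Irx3. H3K27me3 domains at these genes were long, with 234728 bp at Sox2 and 310435 bp at Pax2. Of 65 regulators of mesoderm and endoderm 35 had both marks and 22 H3K27me3 only. Gata2, a regulator of blood formation, had both with an H3K4me3 fold of 20.05, Msx1 with 16.3, Twist2 with 10.8 and Twist1 with 5.24. Those with H3K4me3 only included Tbx4, Sox9, Runx1, Prrx1 and Pitx3. Runx1 had a fold of 40.8 and Sox9 38.3. Lbx1, a homeobox gene of migrating limb muscle precursors, had both marks with a strong fold of 40.8, and H3K4me3 only with the narrow list.

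Families of regulators were divided in different ways, beside 9.91% of all genes with both marks, 46.3% with H3K4me3 only and 19.3% with H3K27me3 only. All 12 Lim homeobox genes had H3K27me3, 11 of them with H3K4me3, and Lhx3 without it. Of 9 Pax genes Pax7 alone had H3K4me3 only, 2 had both and 6 had H3K27me3 only. Of 39 Hox genes 11 had both, 10 H3K4me3 only and 17 H3K27me3 only. Of 44 forkhead genes 16 had both and 12 H3K4me3 only. Of 94 potassium channel genes 35 had both and 45 H3K27me3 only. Zinc finger genes named Zfp stood on the other side, with 300 of 394 having H3K4me3 only. Both marks were at 30 (7.61%), near the share of all genes, and 5 of these kept both with the narrow list. Among Zfp genes with H3K4me3, 8.88% had both, below the 17.4% of all genes with H3K4me3.

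Among signalling pathways, Wnt ligands and modulators had H3K27me3 in 30 of 31 cases, beside 30% of all genes: 15 with H3K4me3 and 15 without. Wnt9a was the single gene with H3K4me3 only, at a fold of 14.4. Among ligands Wnt4 had both marks with an H3K4me3 fold of 7.06, Wnt5a 9.03 and Wnt11 15.2, while Wnt1, Wnt3 and Wnt3a had H3K27me3 only. Of the secreted inhibitors, Sfrp1, Sfrp2 and Dkk2 had both and Dkk1 had H3K27me3 only. All 18 Frizzled genes and Wnt co-receptors, by contrast, had H3K4me3, beside 57% of all genes. Of these 10 had it alone, such as Fzd7 with a fold of 23.8, 6 had both, such as Fzd10 and Lgr5, and 2 had the marks at separate windows. In the Notch pathway 19 of 27 genes had H3K4me3 only, beside 46.3% of all genes, among them Notch1 (fold 35.0), Notch2, Notch3, Rbpj and Hes1. The ligand Dll4, the effector Hes5, the feedback inhibitor Nrarp and the glycosyltransferase Lfng had both marks with either list. Dll3, Dlk1 and the receptor Notch4 had H3K27me3 only, and the ligands Dll1, Jag1 and Jag2 H3K4me3 only. Of 24 ligands and inhibitors of the BMP and TGF-beta pathways 10 had both and 8 H3K27me3 only, beside 9.91% and 19.3% of all genes, while Tgfb1, Tgfb2 and Tgfb3 had H3K4me3 only. Of 22 FGF ligands 8 had both marks and 8 H3K27me3 only.

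Extracellular matrix genes had both marks in 15 of 43 cases (34.9%), beside 9.91% of all genes. With the narrow list 6 had both, beside 5.17% of all genes: Col4a1 and Col4a2, which share a divergent start with a fold of 16.4, Col14a1, Col15a1, Lama1 and Fbn2. Col1a1 (fold 4.15) and Col1a2 (fold 6.86), chains of collagen I, had both with the broad list only. All 33 Polycomb genes had H3K4me3, beside 57% of all genes. H3K4me3 only was the class of 28 of them, beside 46.3% of all genes, including Ezh2 with a fold of 30.3, Suz12 with 41.9 and Eed with 31.1. Epop, Pcgf1, Cbx2 and Phc2 were among those with both marks, and of these 4 Phc2 alone lost H3K27me3 with the narrow list. At Cbx2 the H3K4me3 fold was 25.5 and the H3K27me3 domain was 191731 bp long. That domain reached only the edge of Cbx2: H3K27me3 covered 783 bp of the window and 0% of the gene record. At Pcgf1 it covered 2.51% of the record. Of 20 H3K4 methyltransferase and demethylase genes 18 had H3K4me3 only, beside 46.3% of all genes, and none had both at the same window. The exception without H3K4me3 was Ash2l, a COMPASS and MLL subunit read at both ends of its record, which had H3K27me3 only with the broad list and neither mark with the narrow list.

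H3K27me3 without H3K4me3 lay over several long domains. Joined where they lay up to 3 kb apart, the broad peaks formed 53083 domains. The longest, 685575 bp at chr11:96077275-96762849, held no base of H3K4me3 and lay over the starts of 13 genes: Hoxb1 to Hoxb9 and Hoxb13, with Calcoco2, Ttll6 and Skap1. Among the 10 longest domains, those at Otx2 (399592 bp) and Sox1 (396933 bp) also held no H3K4me3. Sulf2, in a domain of 442180 bp, had both marks. Of 5227 domains that held a gene start, 41.0% also held H3K4me3. This share was 9.48% in domains under 2 kb, 37.5% from 5 to 10 kb and 51.9% in the 393 start domains of 100 kb or more, which also span more starts. The highest H3K27me3 folds of the class were 7.68 at Samd11, 6.47 at Lhx3, 6.40 at Tlx2 and 6.22 at Tspoap1. Kcna7, Lhb and Ntf5 shared a domain with a fold of 6.04.

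Among families, H3K27me3 only held 48 of 53 keratin genes, 49 of 57 clustered protocadherins and 35 of 56 keratin-associated protein genes, beside 19.3% of all genes. With the narrow list these counts were 28, 12 and 7. Immune markers had H3K27me3 only in 15 of 20 cases, 4 of them with the narrow list, and Cd14 and Cd4 had both. Of 40 sarcomere and differentiated muscle genes 15 had H3K27me3 only, 14 neither and 10 H3K4me3 only, and none had both at the same window. Over all genes these 4 classes held 19.3%, 23.7%, 46.3% and 9.91%, in that order. With the narrow list 5 of the 40 genes had H3K27me3 only. Skeletal actin Acta1 had a broad H3K27me3 peak at a fold of 4.20, Myh3 at 2.45 and Pvalb, which encodes parvalbumin, at 3.61, and all 3 kept H3K27me3 with the narrow list. Myh1, Myh7, Myh8, Myl1 and Mylpf had neither mark. Tpm1 (fold 35.2), Des (33.1), which encodes desmin, Myl4 (32.7) and Tnnc1 (27.3) had H3K4me3 only. At Tnnc1 H3K4me3 covered only 133 of the 2001 bp of the window.

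Neither mark was the most frequent class among receptor genes of smell and among defensins. Of 1110 olfactory receptor genes 876 had neither mark and 232 H3K27me3 only, and with the narrow list 40 had H3K27me3 only. Neither mark was found at 298 of 353 vomeronasal receptor genes and 56 of 71 defensin genes, beside 23.7% of all genes. By chromosome, the X had H3K27me3 at 9.94% of its 966 genes and both marks at 2.80%, with 52.5% having neither. Autosomes had H3K27me3 at 26.8% to 40.9% of genes with a median of 30.9%. H3K4me3 was present at 40.5% of X genes, against 45.9% to 68.6% on autosomes. In quiescent cells 5.49% of X genes had H3K27me3. How well reads map on the X was not tested.

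CpG content, which the classes did not use, was similar in genes with both marks and with H3K4me3 only. In the 300-base promoters of RefSeq (250 before to 50 after the start) the median number of CpG was 22 with both marks, 23 with H3K4me3 only, 5 with H3K27me3 only, 2 with neither and 14 over all 17492 promoters. A promoter was called CpG-rich with a GC content of at least 55% and an observed over expected CpG ratio of at least 0.6. This held for 65.4% of promoters with both marks, 69.9% with H3K4me3 only, 12.9% with H3K27me3 only, 2.06% with neither and 42.7% of all. Read the other way, 7468 CpG-rich promoters had H3K4me3 only in 78.6% of cases, both marks in 14.1%, H3K27me3 only in 5.48% and neither in 1.16%. The 10024 other promoters had neither in 41.4%, H3K27me3 only in 27.6%, H3K4me3 only in 25.2% and both in 5.56%.

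Genes with H3K27me3 only thus fell into a CpG-rich group of 409 and a group of 2765 others. The CpG-rich group had a median H3K27me3 fold of 2.88 (quartiles 2.28 and 3.61), and 78.5% of it had H3K27me3 only with the narrow list as well. The others had a median fold of 2.04 (quartiles 1.78 and 2.54) and 35.0%. The values by list below count members of every class, not those with H3K27me3 only alone. Of the 33 neural regulators with a promoter entry 25 were CpG-rich, with a median of 24 CpG. None of 13 immune markers was, with a median of 4. Keratin genes had a median of 5 CpG and sarcomere genes 7, near the 6 of the stretch of Myh2 shown above. Olfactory receptors had a median of 1. A CpG count describes these windows and is not a measure of binding.

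**Figure D4:**
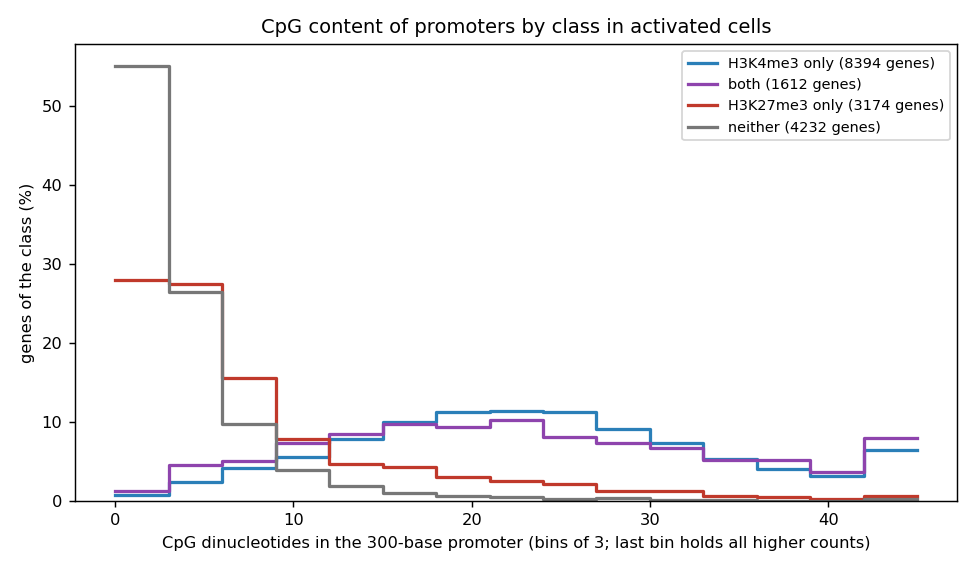
Percent of the genes of a class (vertical axis) by the number of CpG in the 300-base RefSeq promoter (horizontal axis, bins of 3), for the 4 classes of genes with a stranded start. Genes with both marks and with H3K4me3 only have similar curves with medians of 22 and 23, while genes with H3K27me3 only and with neither lie to the left with medians of 5 and 2.

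Set beside the quiescent state, both marks were called at more genes in activated cells: 1114 genes (5.09%) had both in quiescent cells, and 9.35% of quiescent genes with H3K4me3 had both. Of the 2168 genes with both marks in activated cells, 950 (43.8%) had both in quiescent cells, 680 (31.4%) had H3K4me3 only there and 417 (19.2%) H3K27me3 only. These 3 origins differed in their values in activated cells. Genes with H3K27me3 only in quiescence had a median H3K4me3 fold of 5.24, all 10001 bp within 5 kb under H3K27me3 at the median, and 78.9% kept both marks with the narrow list. Genes with H3K4me3 only in quiescence had a median fold of 12.8, 5537.5 bp of H3K27me3 and 19.1%. Sox2, Wnt10a, Wif1 and Fgf10 were of the former kind, and Wnt4, Bmp4 and Nrarp of the latter. Of the genes with both marks in quiescence 85.3% had both in activated cells. The lists of the states differ in length and quality: the quiescent H3K4me3 list had 14354 narrow peaks with a median fold of 10.4, and the quiescent broad H3K27me3 list had 130668 peaks over 455 Mb. A change of class can therefore come from the calling of peaks, and its part was not tested.

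**Figure D5:**
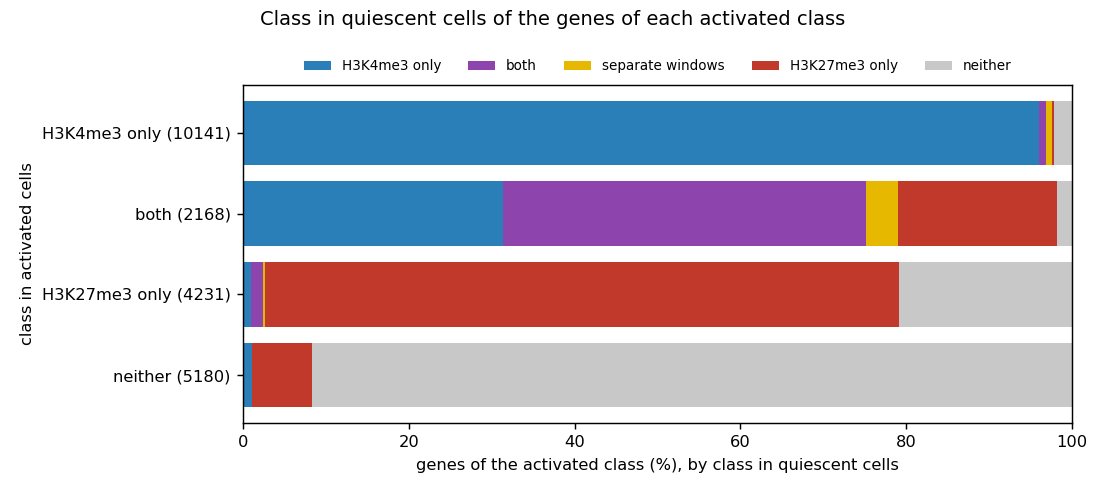
Class in quiescent cells (colours, percent of genes on the horizontal axis) of the genes of each class in activated cells, with the number of genes in brackets. Genes with both marks are the most mixed, 43.8% with both in quiescence, 31.4% with H3K4me3 only and 19.2% with H3K27me3 only.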

How the data were processed

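Nuclei were sonicated, immunoprecipitated and tagmented on the antibody-bound DNA (ChIPmentation), per the labels' protocols, and read as 2 × 75 bp. The submitters' processing notes name the build mm10 and these tools: MACS2 2.1.1, Bowtie2 2.3.2, Trimmomatic 0.36, bcl2fastq 2.19, bedtools 2.26.0, SAMtools 1.3 and Picard 2.9.2. The settings used with them are not stated there. The authors deposited for every peak a fold over background (a linear ratio), a −log10 q-value, a score and, in the narrow lists, a summit position (an offset in bp). Peak names are numbered, and the deposited lists hold part of the numbers: 62.0% for narrow H3K4me3 and 49.9% for broad H3K27me3. Signal tracks were not used here. Read depth is unknown. Binomial 95% intervals of the shares served only to judge whether an alternative moved them.

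Windows, domains (H3K4me3 gaps of 1 kb, H3K27me3 gaps of 3 kb) and classes were computed in Python 3.11.15 with numpy 2.4.6 and pandas 2.3.3, by code tested on simulated peaks. H3K27me3 fold for a gene is the highest of the broad peaks touching its window, and H3K4me3 fold that of the narrow peaks. Genes came from RefSeq for GRCm38.p6, without strand for 4395 of them, and of 673 list symbols, counted per list, all 673 matched. Genes in the text are members of the 24 lists or 22 families, the 10 with the highest fold or longest domain of a class, and genes of the 10 longest H3K27me3 domains. Some genes that this rule takes are not reported here. Provisional symbols were left out, and examples among list members were picked after their values were seen. The members and lists were chosen with earlier results of these data known, and no list count is independent support. No test was run, since each group has a single pooled list. Alternatives were the other list of each mark, stricter fold and q, other windows, overlaps, gene sets and merging gaps.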

Additional observations from a re-analysis of the deposited data

How the results depend on the processing

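No paired analysis was possible because both replicates of a group share a single peak list. For the same reason leaving out a replicate was not run. Each result was recomputed under the listed alternatives. The count of H3K4me3-only genes stayed within 1.5 times of 10141 in all 14, from 7643 of 18620 genes to 12381 of 49943. These 2 settings use other gene sets, so their counts do not compare as shares. Among settings that keep the 21887 genes the count ran from 7800 to 11858. The ratio of median H3K4me3 domain length stayed below 1 in all 17, from 0.551 to 0.704. Genes with both marks (2168) became 1131 with the narrow H3K27me3 list, 591 with an H3K27me3 fold of at least 3, 1411 with an H3K27me3 −log10 q of at least 1.3 and 4782 with a window of 2.5 kb. Genes with H3K27me3 only (4231) became 1776, 756 and 1990 under those 3 H3K27me3 settings, and 12633 with all 49943 annotated genes. Genes with neither mark (5180) became 8655 with an H3K27me3 fold of at least 3 and 21788 with all annotated genes. The share of H3K4me3 genes with both marks (17.4%) was 9.07% with the narrow H3K27me3 list, 21.7% with the broad H3K4me3 list, 4.74% with an H3K27me3 fold of at least 3, 11.3% with the q setting, 15.49% with an H3K4me3 fold of at least 5, 12.1% and 37.6% with windows of 500 bp and 2.5 kb, 13.1% with larger overlaps (200 and 1000 bp), 25.1% with an overlap of 1 bp, 18.5% with both ends of the record, 18.4% with all genes and 19.9% with genes whose windows overlap no other. Chosen after seeing the data, genes with a stranded start gave 16.0%, and at least 200 bp under both marks 15.5%. The share of H3K4me3 peaks under H3K27me3 (23.5%) was 12.03% with the narrow H3K27me3 list, 30.4% with the broad H3K4me3 list, 5.96% with an H3K27me3 fold of at least 3, 14.2% with the q setting, 21.8% with an H3K4me3 fold of at least 5 and 15.9% where at least 50% of the peak had to be covered. Fewer peaks pass the stricter H3K27me3 settings, and wider windows hold more peaks. The unknown read depth limits how far a missing peak can be read as a missing mark.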

Other observations

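Further groups of genes were divided between the classes in activated cells. Of all genes 46.3% had H3K4me3 only, 9.91% both marks, 19.3% H3K27me3 only and 23.7% neither. Of 22 glycolysis genes 15 had H3K4me3 only, among them Eno3, the muscle enolase, with a joined H3K4me3 domain of 15834 bp. The longest domain among solute carrier genes with H3K4me3 only had the same length, so the domain may be shared with a neighbouring gene. Pgam2, the muscle phosphoglycerate mutase, had H3K27me3 only. Hk2, Pfkm and Eno2 had both marks, and Pfkm alone of these kept both with the narrow H3K27me3 list. Of 7 cyclin-dependent kinase inhibitor genes, Cdkn1b had H3K4me3 only over a domain of 14786 bp, Cdkn1c had both marks at an H3K4me3 fold of 5.06 inside an H3K27me3 domain of 92821 bp, and Cdkn1a had the marks at separate windows.

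Of 346 solute carrier genes 145 (41.9%) had H3K4me3 only, near the 46.3% of all genes, 45 (13.0%) both and 104 (30.1%) H3K27me3 only. Cytochrome P450 genes, which oxidise drugs and steroids, had H3K27me3 only in 38 of 97 cases (39.2%) and neither mark in 41 (42.3%). Gap junction genes had H3K27me3 only in 12 of 20 cases (60%). G protein-coupled receptor genes of the Gpr series had neither mark in 24 of 74 (32.4%), beside 23.7% of all genes.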
